A study of Mus musculus with 12 samples.

Results

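The matrilins and the thrombospondins, the latter including cartilage oligomeric matrix protein (COMP), were followed in chondrocytes treated with dexamethasone (DEX), a synthetic glucocorticoid. The 9 genes are Matn1, Matn2, Matn3, Matn4, Comp, Thbs1, Thbs2, Thbs3 and Thbs4, and every probe set that the platform annotation gives to 1 of them alone was taken. These were 14 of 45101 probe sets, and 9 of 18194 genes that have such a probe set. A further probe set is listed for both Pald1 and Thbs1 and was not used. The cells of all groups were primary chondrocytes from the tibiae, femurs and humeri of CD1 mouse embryos at E15.5, plated as monolayers and kept with ascorbic acid and beta-glycerophosphate. They were given 100 nM DEX dissolved in DMSO, or DMSO as vehicle, and RNA was taken at 6 hrs and at 24 hrs. Affymetrix whole-genome mouse arrays measured 3 samples in each of the 4 groups, 12 in all, numbered 1, 2 and 4. The methods give independent cell isolations, each a pool of cells from many bones, and beyond the replicate numbers nothing shows which arrays share an isolation. The array run records describe both 6 hrs arrays labelled replicate 4 as number 3, so a number was used to pair arrays within a time and not between times. The question was whether DEX altered the RNA of these matrix proteins at either time.

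Matrilins are secreted proteins built from von Willebrand factor A domains and a coiled coil that joins them into oligomers, and they link collagen fibrils and proteoglycans in cartilage. Thrombospondins are calcium-binding glycoproteins of the matrix: Thbs1 and Thbs2 form trimers, carry type 1 repeats and modulate angiogenesis, while Thbs3, Thbs4 and COMP form pentamers. COMP binds collagens and matrilins and assists fibril assembly, and inherited changes in COMP or matrilin 3 are known causes of skeletal dysplasias.

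The values are linear intensities after GC-RMA, a background correction that uses the base composition of the probes, so that an intensity is comparable between arrays for 1 probe set and not between probe sets. All 14 probe sets reached a mean of 50 in at least 1 group, the minimum for testing, as did 20897 probe sets in total. The arrays were hybridized on 4 days, each with equal numbers of DEX and vehicle arrays, but none with both times, and therefore time is confounded with day and the 2 cannot be told apart. On the third of these days DEX and vehicle replicates 1 and 2 of the 6 hrs series were run, and these 4 arrays stood apart from the other 8 (first principal component, 67.4% of the variance). Their Gapdh 3′ control exceeded the 5′ control by 0.49 to 0.74 on the log2 scale, against -0.33 to -0.22 elsewhere, a measure of RNA integrity. Cartilage was the labelled source, and all 16 listed cartilage matrix markers were expressed, as were all 15 of tendon and perichondrial fibroblasts, 10 of 13 of skeletal muscle, 6 of 10 of macrophages and 4 of 7 of megakaryocytes and platelets. Of 8 endothelial markers 1 was expressed, and the defining Pecam1 and Cdh5 were below the minimum in every group. Of the macrophage list Ptprc, Fcgr1, C1qa and C1qb were also below it, while Cd68, Adgre1, Csf1r, Lyz2, Cd14 and Mpeg1 were expressed. Of the platelet list Gp9 and Selp were below it, while Pf4, Ppbp, Itga2b and Gp1bb were expressed. By the same rule 11053 of all 18194 genes were expressed, so these counts alone do not show that a cell type was present.

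No member of either family passed the test at either time or over the 2 times together. With limma over all 12 arrays and Benjamini-Hochberg adjustment, 0 of 14 probe sets were called at 6 hrs, where 0.225% of all probe sets tested were called. At 24 hrs 0 of 14 were called against 0.287%, and over both times 0 of 14 against 0.747%. At an unadjusted p under 0.05 the counts were 0 of 14 at 6 hrs (3.66% of all), 1 of 14 at 24 hrs (6.24%) and 0 of 14 over both times (5.65%). The count also stayed at 0 with the Welch test of the methods. For a single time that test cannot decide, since it called 0 of all 20897 probe sets at either one. For the 2 times together it called 0.182%. Same-numbered DEX and vehicle arrays of a time were also taken as a pair and entered as a block. The count was again 0 with this block, where 0.904% of all probe sets were called at 6 hrs. That block called 2.15% at 24 hrs and, over both times, 3.2%. With it 1 of the 14 had an unadjusted p under 0.05 at 6 hrs (11.3% of all), 6 at 24 hrs (17.1%) and 3 over both times (14.7%). On the log2 scale the 14 had a median difference of -0.01 at 6 hrs and 0.09 at 24 hrs, beside -0.01 and -0.03 for all probe sets tested. These counts do not show that the genes were unaffected.

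**Figure D1:**
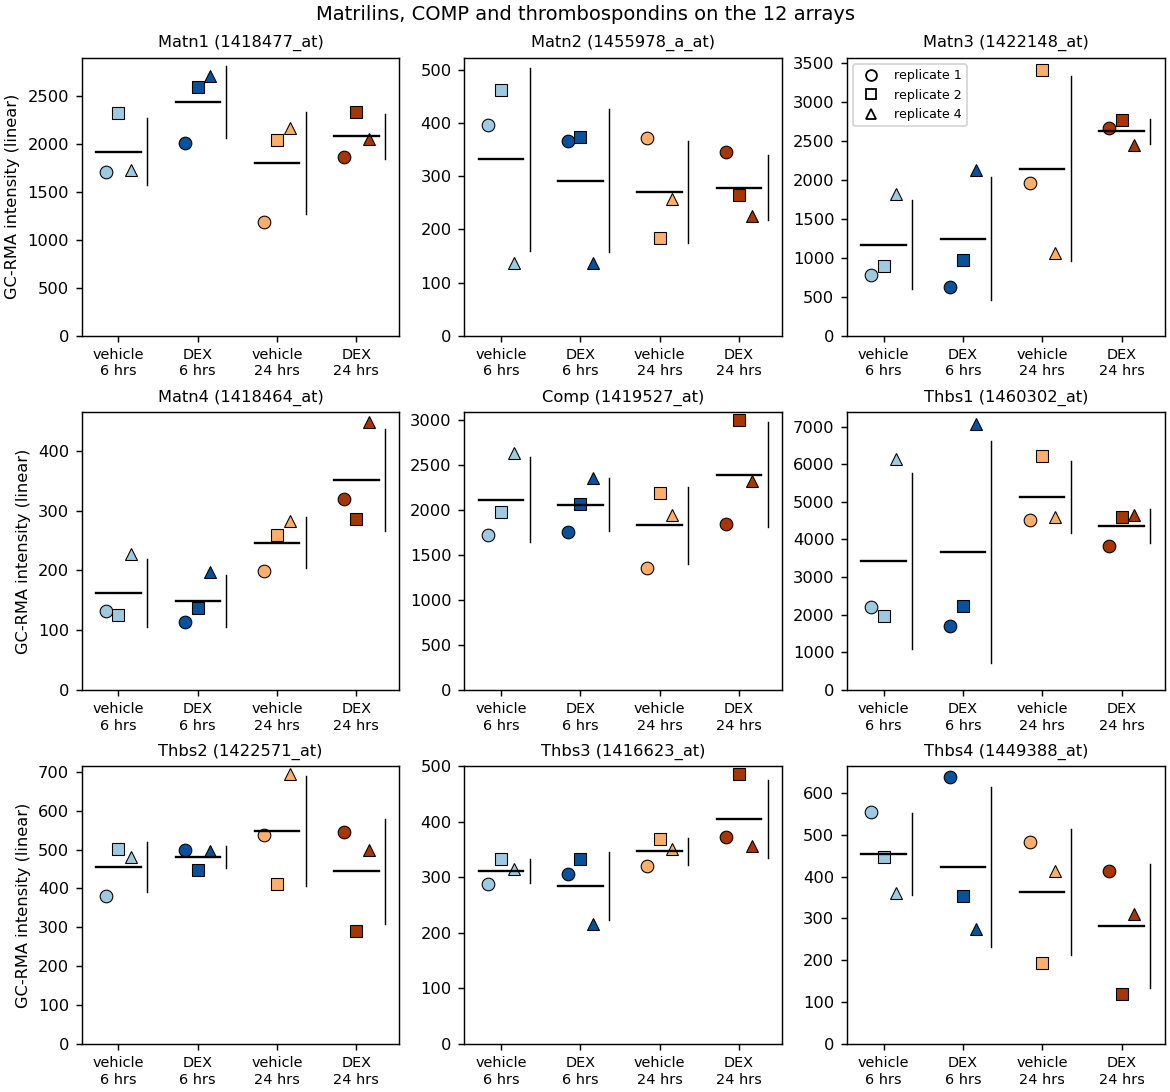
Linear GC-RMA intensity (y axis, from 0, its own range in each panel) of the brightest probe set of each of the 9 genes on the 12 arrays. Symbols are replicates, horizontal lines are means and vertical lines SD over 3 arrays. Within a gene the DEX and vehicle arrays overlap in every panel at 6 hrs, and at 24 hrs in all panels but that of Matn4, while Thbs1 is low on 4 of the 6 arrays at 6 hrs.

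Among the matrilins, Matn4 and 1 probe set of Matn3 were higher with DEX in all 3 pairs at 24 hrs, with no overlap between the groups, and Matn1 was higher in 5 of 6 pairs over both times. Groups that do not overlap in this direction were seen for 2 of 14 member probe sets at 24 hrs and for 8.45% of all. None of these differences passed the adjusted test.

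Matn1 is the matrilin abundant in proliferating growth plate cartilage. At 6 hrs its probe set 1418477_at had intensities of 1714, 2328 and 1728 in vehicle replicates 1, 2 and 4, and of 2014, 2597 and 2717 with DEX. At 24 hrs they were 1188, 2046 and 2167 in vehicle and 1865, 2335 and 2050 with DEX. DEX arrays were thus higher in every pair but that of replicate 4 at 24 hrs, and the groups overlapped at both times. The log2 difference was 0.35 (SE 0.246, limma adjusted p = 1.00) at 6 hrs and 0.25 (SE 0.246) at 24 hrs. Over both times it was 0.30 (SE 0.174), and the 95% interval with the pairs as a block was 0.02 to 0.58 (adjusted p = 0.30).

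Matn3, a matrilin largely restricted to cartilage, has 2 probe sets that did not behave alike. The brightest, 1422148_at, read 776, 896 and 1819 in vehicle and 629, 967 and 2128 with DEX at 6 hrs. At 24 hrs it gave 1951, 3410 and 1065 in vehicle, and 2656, 2761 and 2448 with DEX. In vehicle at 24 hrs the 3 arrays were thus spread over a wider range (SD 1184) than with DEX (SD 159), and 1 of the 3 pairs went down. The other probe set, 1455948_x_at, whose suffix marks probes that can also match other transcripts, read 1345, 1339 and 731 in vehicle and 927, 1098 and 711 with DEX at 6 hrs. At 24 hrs it read 1485, 1053 and 736 in vehicle and 1645, 1802 and 1696 with DEX. It was lower with DEX in all 3 pairs at 6 hrs and higher in all 3 at 24 hrs. Such a turn was seen in 2 of 14 member probe sets, the other being 1450663_at of Thbs2, and in 5.87% of all. At 24 hrs its log2 difference was 0.71 (SE 0.301, limma adjusted p = 0.747), and that of 1422148_at was 0.45 (SE 0.504). Both intervals with the pairs as a block reached above 1, to 1.18 and 1.06, so a 2-fold rise of Matn3 at 24 hrs is inside them.

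Matn4 is the most widely expressed matrilin, present in loose connective tissue as well as cartilage. Probe set 1418464_at read 133, 125 and 228 in vehicle and 113, 137 and 198 with DEX at 6 hrs. Its 24 hrs values were 198, 260 and 282 in vehicle, against 319, 286 and 448 with DEX, so that each DEX array was above each vehicle array. The lowest DEX and the highest vehicle array at 24 hrs were close. The log2 difference was -0.10 at 6 hrs and 0.50 (SE 0.293, limma adjusted p = 0.957) at 24 hrs, with a 95% interval of 0.15 to 0.84 with the pairs as a block (adjusted p = 0.152).

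Matn2, found in many connective tissues outside cartilage, showed no common direction. Its brightest probe set, 1455978_a_at, read 397, 463 and 137 in vehicle and 367, 373 and 136 with DEX at 6 hrs. The 24 hrs values were 373, 183 and 256 in vehicle and 345, 265 and 226 with DEX. Both replicate 4 arrays at 6 hrs were lower than all other arrays, whatever the treatment. The other probe set, 1419442_at, ran from 81 to 97 at 6 hrs and from 102 to 154 at 24 hrs. With the pairs as a block the intervals at 24 hrs were -0.30 to 0.45 and -0.17 to 0.39 on the log2 scale, both within a 2-fold change.

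Comp was higher with DEX in all 3 pairs at 24 hrs, by similar amounts, and showed little difference at 6 hrs. Its 1 probe set, 1419527_at, read 1717, 1980 and 2634 in vehicle and 1758, 2059 and 2355 with DEX at 6 hrs. The later arrays read 1353, 2185 and 1942 in vehicle and 1838, 3002 and 2321 with DEX. The groups overlapped at 24 hrs, since replicate 1 was the lowest array under either treatment. Within pairs the log2 differences at 24 hrs were 0.44, 0.46 and 0.26, an SD of 0.112. The mean was 0.39 (SE 0.252, limma adjusted p = 1.00), and with the pairs as a block the 95% interval was 0.13 to 0.64 (adjusted p = 0.139), or 1.09-fold to 1.56-fold. At 6 hrs the same interval was -0.28 to 0.23.

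Among the thrombospondins, Thbs2 and Thbs4 were lower with DEX in most pairs at 24 hrs, Thbs3 was higher in all 3, and Thbs1 differed little between DEX and vehicle beside its large difference between hybridization days. At 24 hrs, 4 of the 14 member probe sets were lower in all 3 pairs (1 of Thbs1, 2 of Thbs2 and that of Thbs4) and 4 were higher in all 3 (1 of Matn3 and those of Matn4, Comp and Thbs3). Among all probe sets tested 22.6% were lower and 17.7% higher in all 3 pairs. At 6 hrs 3 were lower and 3 higher, against 18.7% and 14.9%.

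Thbs2 is a trimeric thrombospondin that inhibits the growth of blood vessels. Its brightest probe set, 1422571_at, read 382, 502 and 481 in vehicle and 499, 448 and 496 with DEX at 6 hrs. The 24 hrs arrays read 537, 412 and 695 in vehicle and 545, 291 and 498 with DEX. Probe set 1450663_at read 349, 368 and 268 in vehicle and 390, 381 and 575 with DEX at 6 hrs. These groups did not overlap at 6 hrs, with every DEX array higher, as held for 1 of 14 member probe sets and 3.04% of all. At 24 hrs 1450663_at read 561, 346 and 844 in vehicle and 476, 218 and 470 with DEX, lower in every pair with overlapping groups. The third, 1447862_x_at, ran from 245 to 384 in vehicle and from 134 to 259 with DEX at 24 hrs, and was also lower in every pair. The log2 differences at 24 hrs were -0.32 (SE 0.261), -0.58 (SE 0.372) and -0.68 (SE 0.318, limma adjusted p = 0.820) in this order. With the pairs as a block their adjusted p ranged from 0.241 to 0.353, and the lowest end of their intervals was -1.29.

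Thbs4, a pentameric thrombospondin of tendon and muscle, was lower with DEX in 5 of 6 pairs. Probe set 1449388_at read 554, 447 and 360 in vehicle and 638, 353 and 276 with DEX at 6 hrs. The 24 hrs arrays read 484, 193 and 414 in vehicle and 414, 120 and 312 with DEX. Replicate 2 at 24 hrs was the lowest under both treatments, and the groups overlapped. The log2 difference at 24 hrs was -0.44 (SE 0.494), with a 95% interval of -0.81 to -0.08 with the pairs as a block (adjusted p = 0.214). Over both times it was -0.31 (SE 0.349). The summed intensity of the 10 expressed skeletal muscle markers at 24 hrs was 1582, 702 and 2159 in vehicle replicates 1, 2 and 4 and 1360, 636 and 1339 with DEX, again lowest in replicate 2 and lower with DEX in each pair. Replicate 2 was the only 24 hrs pair of hybridization day 1. At 6 hrs the sums did not run with Thbs4. They were 1047, 1562 and 1313 in vehicle and 1070, 1421 and 1388 with DEX, lowest in replicate 1, where Thbs4 was highest. With DEX the sums rose in replicates 1 and 4, and Thbs4 rose in replicate 1 alone. For the 15 tendon and perichondrial fibroblast markers the sums at 24 hrs ran from 22337 to 24271 in vehicle and from 19753 to 27010 with DEX. None of the 10 tested muscle markers passed, but with the hybridization day as a block Myod1, a muscle transcription factor, fell by 0.57 on the log2 scale at 24 hrs (limma adjusted p = 0.0316), and with either block Postn of the fibroblast list rose. Both lists held differences of either sign at 24 hrs. The muscle list ran from -1.215 to 0.647 on the log2 scale (median -0.50). The fibroblast list ran from -0.56 to 1.396, the value of Postn (median -0.05). The part of these cells in the values of Thbs4 was not tested. In such cultures fewer cells of a type and less RNA per cell cannot be told apart.

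Thbs3, another pentameric member, read 289, 332 and 314 in vehicle and 305, 333 and 216 with DEX at 6 hrs (1416623_at). By 24 hrs the values were 321, 369 and 350 in vehicle and 372, 487 and 357 with DEX. The difference was upward in 5 of 6 pairs, the exception being replicate 4 at 6 hrs. At 24 hrs it was 0.21 on the log2 scale (SE 0.195), and the interval with the pairs as a block was -0.14 to 0.57.

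**Figure D2:**
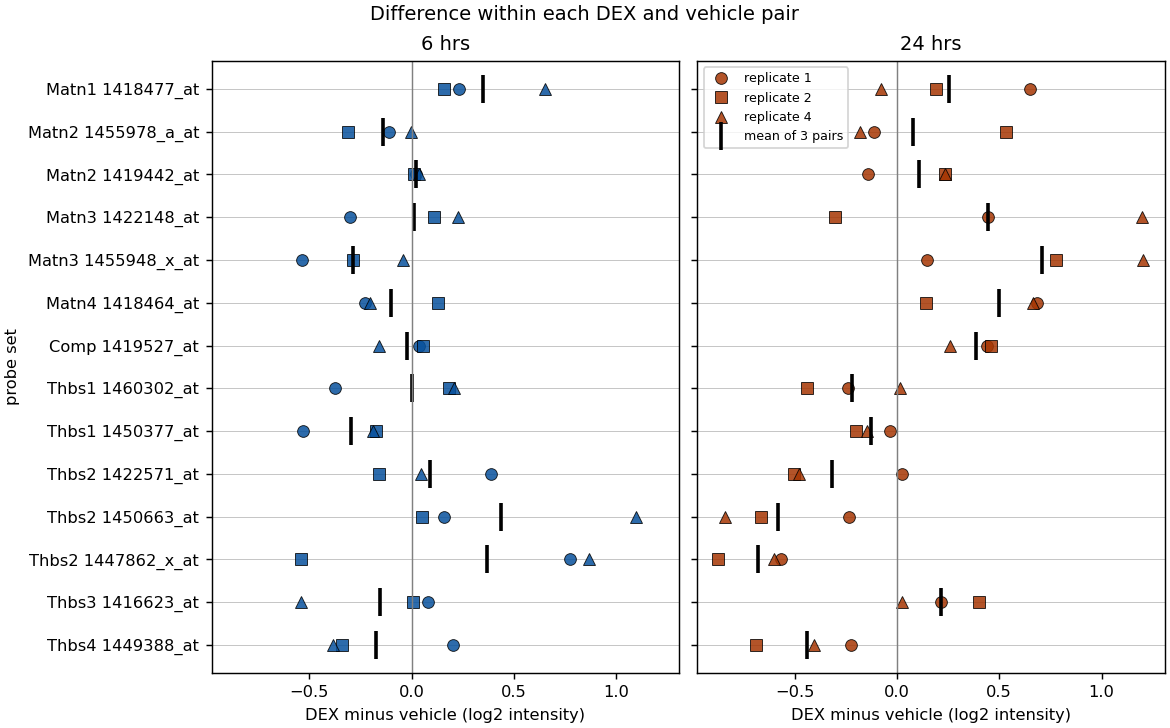
DEX minus vehicle on the log2 scale (x axis) within each pair for the 14 probe sets (y axis), at 6 hrs on the left and 24 hrs on the right. Symbols are replicates and the upright bars are means of 3 pairs. At 24 hrs the 3 pairs of Comp lie between 0.26 and 0.46, while those of the brightest Matn3 probe set lie between -0.30 and 1.20.

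Thbs1, a trimeric thrombospondin that inhibits angiogenesis and activates latent TGF-beta, differed far more between hybridization days than between DEX and vehicle. Probe set 1450377_at read 651, 517 and 7019 in vehicle and 450, 458 and 6165 with DEX at 6 hrs. At 24 hrs it read 4474, 5922 and 5551 in vehicle and 4372, 5152 and 5012 with DEX. All 4 arrays of the third day thus lay between 450 and 651, and the other 8 between 4372 and 7019. The brightest probe set, 1460302_at, read 2208, 1954 and 6129 in vehicle and 1702, 2217 and 7068 with DEX at 6 hrs, and between 3836 and 6230 at 24 hrs. The third-day arrays were low again, but the gap was smaller: the mean difference from the other 8 arrays was -1.35 for 1460302_at and -3.40 for 1450377_at, on the log2 scale.

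Within pairs, 1450377_at was lower with DEX in 6 of 6, as were 4.71% of all probe sets, by 0.03 to 0.53 on the log2 scale. Over both times its difference was -0.21 (SE 0.755, limma adjusted p = 1.00), and with the pairs as a block the SE was 0.0841 (adjusted p = 0.297). The other probe set, 1460302_at, was lower in 3 of 6 pairs, and its interval over both times with the pairs as a block was -0.37 to 0.15. The SE without the block holds the day difference, since replicates 1 and 2 at 6 hrs and replicate 4 lie on different days.

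Other members also differed on the third-day arrays. The brightest Matn3 probe set was lower by 1.43 and Matn4 by 1.08 on the log2 scale, with no overlap with the other 8 arrays, whereas the second Matn3 probe set differed by 0.02 and Comp by -0.20. Of the 14 probe sets 4 did not overlap (28.6%), against 42.9% of all probe sets tested. The part of RNA integrity in these differences was not tested. The replicate 4 arrays at 6 hrs, which had Gapdh values like those at 24 hrs, had Thbs1 intensities of 6129 to 7068, close to or above the 24 hrs arrays. Day, replicate and RNA integrity cannot be told apart among the 6 hrs arrays.

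**Figure D3:**
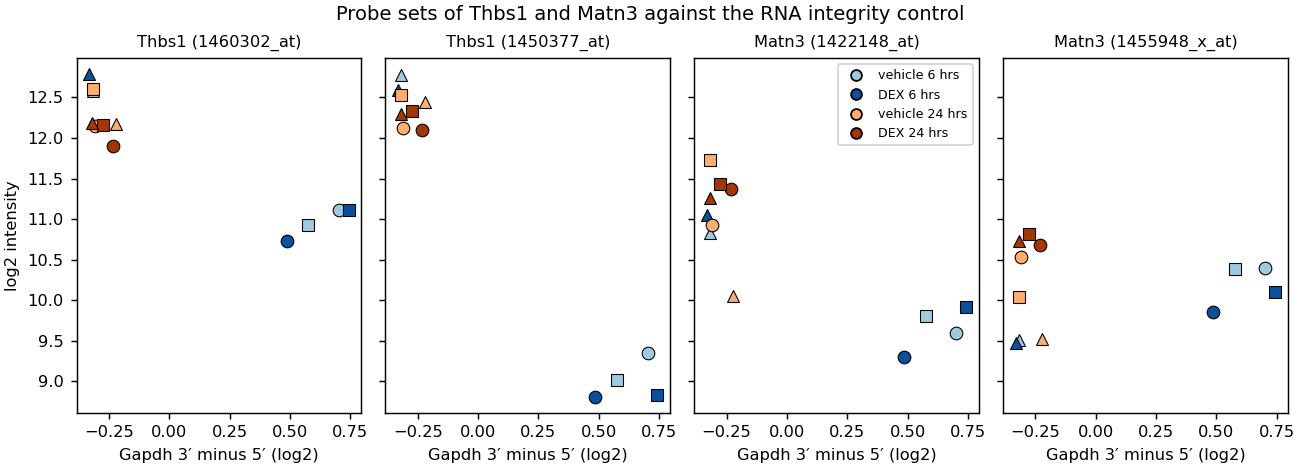
Log2 intensity (y axis) of both probe sets of Thbs1 and both of Matn3 against the 3′ minus 5′ log2 difference of the Gapdh control (x axis) on the 12 arrays; colours are groups and symbols are replicates 1 (circle), 2 (square) and 4 (triangle). The 4 arrays of the third day lie on the right at 0.49 to 0.74, with Thbs1 low on both probe sets and Matn3 low on 1 of its 2.

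The difference between the DEX effects at 24 hrs and at 6 hrs was tested for each probe set, and 0 of 14 were called with limma, with 0.0% of all; with the pairs as a block it was again 0 of 14, with 0.00479% of all. The unadjusted p was under 0.05 for 2 of 14, beside 3.63% of all. These were 1455948_x_at of Matn3, at 1.00 (SE 0.426), and 1447862_x_at of Thbs2, at -1.05 (SE 0.450), both on the log2 scale with adjusted p = 1.00. Both probe sets carry the suffix for probes that can match further transcripts. With the pairs as a block, 5 of 14 had an unadjusted p under 0.05, beside 12.8% of all, namely these and those of Matn4, Comp and 1450663_at of Thbs2, and the lowest adjusted p was 0.298.

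**Figure D4:**
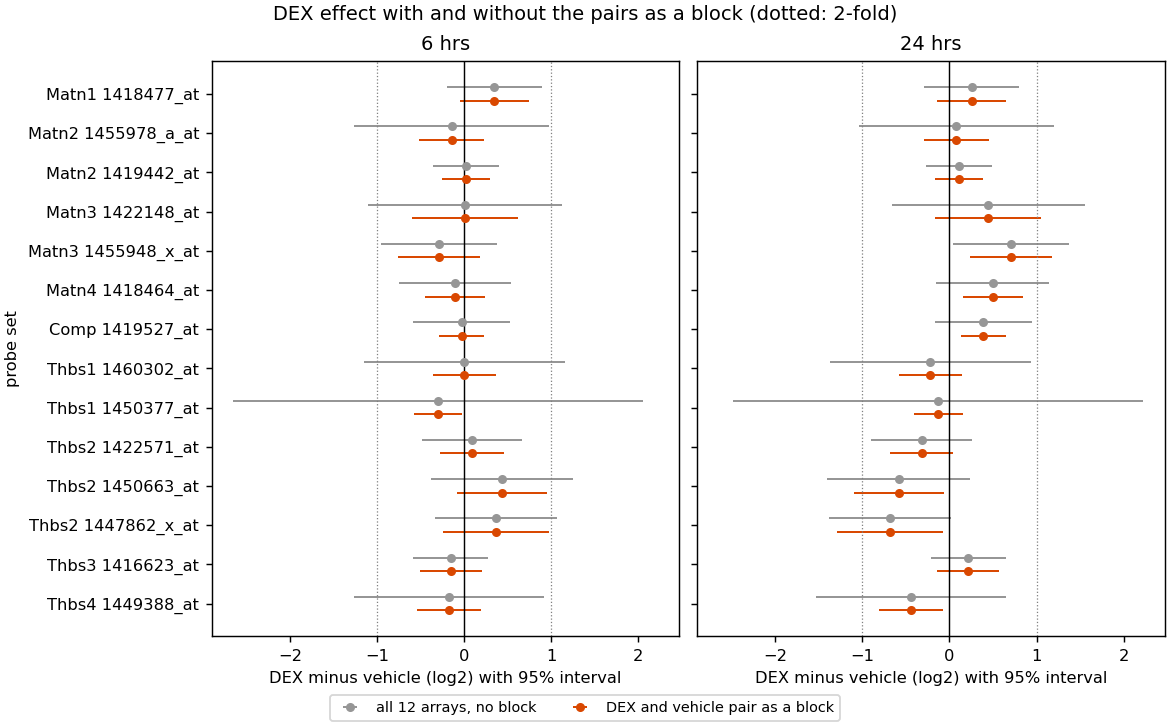
Fitted DEX minus vehicle difference (log2, x axis) with its 95% interval for the 14 probe sets, at 6 hrs on the left and 24 hrs on the right, without a block (grey) and with the DEX and vehicle pair as a block (orange). Dotted lines mark 2-fold changes. The block narrows the interval of Thbs1 1450377_at at 24 hrs from -2.48 to 2.23 down to -0.41 to 0.15.

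With the pairs as a block, the intervals of all 14 probe sets at 6 hrs lay between -0.76 and 0.98 on the log2 scale. None of these intervals reached a 2-fold change in either direction. Over both times they lay between -0.59 and 0.66. At 24 hrs they lay between -1.29 and 1.18, and only those of Matn3 (both probe sets) and Thbs2 (1450663_at and 1447862_x_at) extended past 2-fold. This fit takes 1 residual spread for both times, but the pairs of some probe sets differed in spread. For 1447862_x_at of Thbs2 the SD of the pair differences was 0.788 at 6 hrs and 0.166 at 24 hrs. For 1422148_at of Matn3 it was 0.278 and 0.752. The replicate 4 pair of 1450663_at at 6 hrs was itself above 2-fold. The intervals rest on a common spread, so they do not exclude a 2-fold change at 6 hrs.

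The DNA before the transcription start is given for 4 of the 6 members that the RefSeq promoter table (GRCm38.p6) holds, chosen after their values were seen: each has at least 1 probe set that was higher or lower with DEX in all 3 pairs at 24 hrs, although the brightest ones of Matn3 and Thbs2 each had 1 pair of the opposite sign. Thbs3, which was also higher in all 3 pairs, is not printed. Comp and 1 probe set of Thbs1 also went 1 way in all 3 pairs, but the promoter table holds neither gene, nor Matn2. Each sequence is the 250 bases before a start, read in the direction of the gene, and capitals mark matches to the GC box GGGCGG or the TATA box TATAAA on either strand. The windows are chr12:8947679-8947928 (+) for Matn3, chr2:164404819-164405068 (-) for 1 of 2 listed starts of Matn4, chr17:14694263-14694512 (-) for Thbs2 and chr13:92794819-92795068 (-) for Thbs4.
Matn3: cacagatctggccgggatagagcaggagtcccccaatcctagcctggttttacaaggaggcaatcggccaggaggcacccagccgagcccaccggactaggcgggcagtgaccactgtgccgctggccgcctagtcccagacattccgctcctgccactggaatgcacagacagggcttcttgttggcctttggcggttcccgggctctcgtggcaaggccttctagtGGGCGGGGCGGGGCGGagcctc
Matn4: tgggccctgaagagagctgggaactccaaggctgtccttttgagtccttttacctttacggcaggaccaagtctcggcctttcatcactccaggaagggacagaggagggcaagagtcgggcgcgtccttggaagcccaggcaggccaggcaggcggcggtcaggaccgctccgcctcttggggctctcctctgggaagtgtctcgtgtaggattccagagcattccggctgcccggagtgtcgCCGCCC
Thbs2: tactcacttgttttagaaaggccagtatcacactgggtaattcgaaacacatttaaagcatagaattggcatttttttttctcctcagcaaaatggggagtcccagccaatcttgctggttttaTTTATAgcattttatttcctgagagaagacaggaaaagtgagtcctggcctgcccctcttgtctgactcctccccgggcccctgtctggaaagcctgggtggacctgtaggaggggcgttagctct
Thbs4: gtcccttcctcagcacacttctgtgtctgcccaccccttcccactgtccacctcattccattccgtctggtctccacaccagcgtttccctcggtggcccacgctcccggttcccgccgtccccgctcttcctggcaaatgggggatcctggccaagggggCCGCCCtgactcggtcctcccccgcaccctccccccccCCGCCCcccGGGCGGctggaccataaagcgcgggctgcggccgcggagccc

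The windows of Matn3 and Thbs4 each hold 3 GC boxes, the 3 of Matn3 overlapping in 1 run close to the start. The printed window of Matn4 holds 1 GC box, and the window of its other start holds none. The GC content is 65.2% for Matn3 and 70.8% for Thbs4 against 46.8% for Thbs2, and the median over 32851 such windows is 52.4%. Thbs2 holds 1 TATA box match, on the reverse strand, 126 bases before the start, which 12.4% of all windows hold somewhere, while 32.7% hold a GC box. The hexamer TGTTCT, searched on both strands and bound by 1 subunit of the glucocorticoid receptor, is in 0 of the 7 windows of the 6 members and in 16.1% of all windows. The SOX motif ACAAAG (16.5% of all) has 1 match, in Thbs3, and the AP-1 motif TGANTCA (6.75%) has none among the members.

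Few of the genes that surround these proteins in the matrix passed the test, as held for genes at large. Of all 11053 expressed genes, 30 rose and 4 fell at 6 hrs, 37 and 4 at 24 hrs, and 78 and 24 over both times. Of 18 expressed matrix binding partners (collagens, aggrecan, decorin and others) 0 passed the test in either direction at any time, as did 0 of 13 cell surface receptors of thrombospondins, 0 of 7 genes of the latent TGF-beta complex, 0 of 14 other secreted proteins with thrombospondin type 1 repeats and 0 of 11 with von Willebrand factor A domains. Single members reached log2 differences near 1 without passing, up to 1.00 for Itga5, an integrin chain, at 6 hrs and down to -0.99 for Rspo2, a Wnt agonist, at 24 hrs. With the pairs as a block Rspo2 fell in all 3 comparisons (over both times limma adjusted p = 0.00482), Ccn3 at 24 hrs and over both times, and Ccn4 over both times, while Itga5 rose over both times (limma adjusted p = 0.0141). With the hybridization day as a block Itga5 rose in all 3 comparisons, Ccn4 fell over both times and Col6a2, a collagen VI chain with A domains, rose over both times (limma adjusted p = 0.0473). Genes called with a block alone, here and in the next paragraph, are named in view of their values. Of the 8 expressed proteases known to cut COMP, matrilins or thrombospondins 1 rose: Adamts1, a secreted metalloprotease that can cleave Thbs1 and Thbs2, was higher in 6 of 6 pairs. Over both times its log2 difference was 1.33 (SE 0.150, limma adjusted p = 0.00165), while the 24 hrs value was 1.51 (SE 0.212, limma adjusted p = 0.0166). Leaving out 1 array kept the adjusted p over both times between 0.00196 and 0.00979, but at 24 hrs 5 of 12 such omissions ended the call, with adjusted p up to 0.106: vehicle replicates 1 and 2 and DEX replicates 1, 2 and 4, all at 24 hrs. Mmp3, stromelysin, fell at 24 hrs with either block, by 0.95 on the log2 scale (limma adjusted p = 0.0174 with the pairs, 0.0383 with the day), and over both times with the pairs.

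Of the 16 cartilage matrix markers 1 rose over both times, Chad, a leucine-rich repeat protein that binds collagen and cells, by 0.97 on the log2 scale (SE 0.159, limma adjusted p = 0.0170, 6 of 6 pairs). Without any 1 of 5 arrays (vehicle replicates 1 and 2 at 6 hrs, vehicle replicates 1 and 4 and DEX replicate 4 at 24 hrs) its adjusted p exceeded 0.05, reaching at most 0.0657. Without the 4 third-day arrays the difference was 1.00 (SE 0.227) and the limma adjusted p 0.141. None of 8 hypertrophic, 4 osteoblast, 15 tendon and fibroblast, 10 muscle, 6 macrophage, 4 megakaryocyte and platelet markers or of the 1 endothelial marker passed. The medians of the cartilage and hypertrophic lists at 24 hrs were 0.25 and 0.62, beside -0.03 for all 11053 expressed genes. With the pairs as a block, 10 of the 120 companion genes (established targets left out) passed at 24 hrs: 7 rose, which were Adamts1, Chad, Ucma, the hypertrophic markers Alpl, Pth1r and Panx3 and the fibroblast marker Postn, and 3 fell, which were Mmp3, Rspo2 and Ccn3. Of all 11053 expressed genes, 187 rose and 88 fell at 24 hrs with that block. With the hybridization day as a block, 9 companion genes rose and 2 fell at 24 hrs, beside 191 and 83 of all 11053 expressed genes. Among the 9 that rose were 4 of 8 hypertrophic and 2 of 4 osteoblast markers (1 in both lists, Ibsp). As a measure of the treatment, 8 of 10 established glucocorticoid targets rose over both times, beside 78 of all 11053 expressed genes.

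Across the 12 arrays, with each hybridization day's mean subtracted, Comp varied with Matn4 (Pearson r = 0.848), Matn1 (0.662) and Thbs3 (0.645), and opposite to Thbs4 (-0.740). These values describe 12 arrays that share days and cultures. By the same measure, the genes most like Comp were Zgpat (0.970) and Ikbip (0.967), those most like Matn4 were Arid3a (0.918) and Ing3 (0.914), and those most like Thbs4 were Bclaf3 (0.976) and Zfp326 (0.957). For Matn1 they were Dubr (0.968) and Fam114a1 (0.948), for Matn2 Hace1 (0.944) and Taf1d (0.932), and for Matn3 Tpcn2 (0.962) and Car5b (0.956). For Thbs1 they were Rpl39 (0.953) and Gsc2 (0.952), for Thbs2 Hoxc10 (0.949) and Ganab (0.942), and for Thbs3 Gpr180 (0.969) and Phykpl (0.941). In each case these are the 2 highest values among 11053 expressed genes. They depend on the subtraction: on the values as deposited the 18 correlations ran from -0.443 (Matn4 with Ing3) to 0.982 (Comp with Zgpat), and Thbs3 with Gpr180 was -0.145.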

How the data were processed

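RNA of 12 cultures was measured on arrays of 45101 probe sets. Scans were preprocessed by the authors, who ran GC-RMA within GeneSpring GX (the submitters' processing notes name GCRMA, with no version), and the deposited values are linear intensities. From these intensities log2 values were computed with no pseudocount. An array has no read depth, and 3 arrays per group limit the precision. Groups follow the sample labels. Those probe sets whose mean reached 50 in 1 or more of the 4 groups were tested with limma 3.58.1 in R 4.3.3 (lmFit, eBayes, 1 mean per group, no block). Benjamini-Hochberg adjustment ran over all 20897 probe sets, with a threshold of 0.05. Tables and figures were made in Python 3.11.15 with matplotlib 3.10.9. A gene with several probe sets is represented by the brightest unless a probe set is named.

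After subtraction of group means, DEX and vehicle arrays of 1 number correlated at 0.681, 0.632 and 0.863 at 6 hrs for replicates 1, 2 and 4. At 24 hrs the values were 0.158, 0.301 and 0.220. Each was above 0.1, and a number was therefore read as a pair within its time. At 6 hrs DEX replicate 1 with vehicle replicate 2 (0.506) and DEX replicate 2 with vehicle replicate 1 (0.571) also exceeded 0.1. Replicates 1 and 2 share a day there, so these correlations cannot tell a shared isolation from a shared day. Other unlike numbers lay between -0.765 and 0.0181. Both arrays of a pair share a hybridization day: at 24 hrs day 1 (replicate 2) or day 2 (replicates 1, 4), and at 6 hrs day 3 (replicates 1, 2) or day 4 (replicate 4). The fit was tested on simulated data.

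The 9 genes and all gene lists were chosen with earlier results of these data known. All member probe sets are named, up to 4 genes of each list by smallest p past the threshold (for the glucocorticoid targets the count alone is given), and the 2 genes most like each member. The alternatives tried were quantile normalization, 16 added before log2, other filters, the replicate pair or hybridization day as a block, single days and single times. Also tried were a Welch test between DEX and vehicle, leaving out each array or the third day, and the mean of a gene's probe sets. Promoter sequences are from RefSeq (GRCm38.p6).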

Additional observations from a re-analysis of the deposited data

Results flagged for a closer look

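For 2 probe sets all 3 pairs of 1 time went one way and all 3 pairs of the other time the opposite way, which also held for 5.87% of all probe sets tested. Matn3 1455948_x_at was lower with DEX in all pairs at 6 hrs and higher in all pairs at 24 hrs, and the 24 hrs effect less the 6 hrs effect was 1.00 on the log2 scale (SE 0.426, limma adjusted p = 1.00, and 0.298 with the pairs as a block). Thbs2 1450663_at was higher in all pairs at 6 hrs and lower in all pairs at 24 hrs, with a difference of -1.02 (SE 0.526, limma adjusted p = 1.00, and 0.319 with the pairs as a block). No hybridization day held both times.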

How the results depend on the processing

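Under 25 other settings no member probe set was called, and all 83 alternative counts were 0. The lowest adjusted p was 0.138, with the replicate block at 24 hrs. Several of these settings called few probe sets of any gene. Of all 20897, 0 were called with only the 6 hrs arrays and 2 within the third hybridization day. The largest share called in any setting was 3.2%, so the counts of 0 do not set the members apart from other probe sets. The replicate block changed no member's call, but moved the number of companion genes called (the established targets left out) from 0 to 3 at 6 hrs, from 1 to 10 at 24 hrs and from 2 to 10 over both times. The hybridization day as a block gave 3, 11 and 8. Over all probe sets the replicate block moved the share called from 0.225% to 0.904%, from 0.287% to 2.15% and from 0.747% to 3.2%. With the day block the shares were 0.948%, 2.18% and 2.87%. Adamts1 at 24 hrs and Chad over both times lost their calls without the filter on low values and with the Welch test, and Adamts1 at 24 hrs also within the second hybridization day. The Welch test called 0 of all 20897 probe sets at 24 hrs, so no gene kept a call there, and 0.182% over both times. Without the filter 0.0488% of all were called at 24 hrs and 0.162% over both times. Of 603 alternative fits of single members 560 kept their sign and 43, in 16 of 27 results, had the opposite one; none of those was called in any setting, and the largest of their main values was 0.44 in size. The other 11 results had 1 sign throughout. Quantile normalization turned Thbs1 at 6 hrs to -0.0818. Within the third hybridization day, the 6 hrs values were -0.10 for Matn3, 0.0450 for Comp, -0.10 for Thbs1 and 0.0427 for Thbs3; within the second day Matn2 at 24 hrs was -0.15. Without the third day, Matn2 and Thbs3 over both times were 0.0374 and -0.16. With the mean of a gene's probe sets, Matn3 and Thbs1 at 6 hrs were -0.14 and -0.15, and Matn2 over both times was 0.0172. Leaving out 1 array at a time breaks a pair and moved the values at 6 hrs from -0.69 to 0.34 for Matn2, -0.47 to 0.41 for Matn3, -0.33 to 0.17 for Matn4, -0.16 to 0.15 for Comp, -0.62 to 0.52 for Thbs1, -0.0318 to 0.17 for Thbs2, -0.28 to 0.0355 for Thbs3 and -0.52 to 0.0864 for Thbs4. At 24 hrs the ranges were -0.0216 to 0.41 for Matn1, -0.17 to 0.34 for Matn2 and -0.85 to 0.0859 for Thbs4. Over both times they were -0.31 to 0.21 for Matn2, -0.0123 to 0.44 for Matn3, -0.42 to 0.15 for Thbs1, -0.21 to 0.0251 for Thbs2 and -0.0390 to 0.12 for Thbs3. The cause of these changes was not tested.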
